A study of Mus musculus with 6 samples.

Results

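Lyz2, C1qa and C1qb are genes that macrophages of the mouse heart transcribe strongly, and they were followed here with the further macrophage genes C1qc, Csf1r, Adgre1, Cd68, Mrc1 and Cx3cr1. The 9 genes were chosen by name, not by their values. A protein-coding row of the table was found for 4 of them, Lyz2, C1qa, C1qb and Mrc1, of 8969 protein-coding genes in all, and the other 5 were not analysed here. Each of the 4 genes had 1 transcript row, so the sum over transcripts is that row.

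Polyadenylated RNA was sequenced from hearts of male mice that had been isolated and perfused in a Langendorff system, in both groups. The 3 I/R hearts (ischaemia and reperfusion) were arrested with Tomas cardioplegia for 30 min and then reperfused for 1 h, while the 3 Sham hearts kept beating. The labels name neither strain, age nor perfusate, and an isolated heart receives no new leukocytes from blood unless the perfusate holds them. Levels are the authors' FPKM, fragments normalised to transcript length and sequencing depth, and refer to the listed transcripts only. From the FPKM of protein-coding transcripts, library totals were recovered as 7690040, 8896834 and 7827563 reads in I/R replicates 1, 2 and 3 and 9902397, 9643195 and 7233171 in Sham replicates 1, 2 and 3. Sham replicates 1 and 2 had the deepest libraries and Sham replicate 3 the shallowest. Replicates are labelled as biological.

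Resident macrophages live between the cardiomyocytes of the healthy heart, where they take up dead cells and debris and keep their numbers by local division. C1q starts the classical complement pathway. It is built of the A, B and C chains encoded by C1qa, C1qb and C1qc, and tissue macrophages are its main source. Lyz2 encodes the lysozyme of macrophages, monocytes and neutrophils, which cuts the cell wall of bacteria. Mrc1 encodes the mannose receptor CD206, an endocytic receptor of tissue macrophages. Activated macrophages switch on another set of genes, such as those of the chemokines CCL3 and CCL4 and of the cytokines TNF and IL-1.

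The promoters of 3 of the 4 genes are shown because they belong to the genes whose levels are described. They are RefSeq sequences of the GRCm38.p6 build, 250 bases before to 50 after the start of the gene, read 5′ to 3′ on the strand of the gene. Capitals mark ACTTCCT, the reverse complement of AGGAAGT, a motif bound by ETS factors, to which the macrophage factor PU.1 belongs.
Lyz2, chr10:117282223-117282522, minus strand: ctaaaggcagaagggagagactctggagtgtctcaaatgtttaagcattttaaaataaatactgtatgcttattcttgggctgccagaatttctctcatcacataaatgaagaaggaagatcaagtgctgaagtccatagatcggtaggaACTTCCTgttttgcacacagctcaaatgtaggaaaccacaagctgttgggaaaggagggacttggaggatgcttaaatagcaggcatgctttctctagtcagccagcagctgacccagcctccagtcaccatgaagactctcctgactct
C1qb, chr4:136886151-136886450, minus strand: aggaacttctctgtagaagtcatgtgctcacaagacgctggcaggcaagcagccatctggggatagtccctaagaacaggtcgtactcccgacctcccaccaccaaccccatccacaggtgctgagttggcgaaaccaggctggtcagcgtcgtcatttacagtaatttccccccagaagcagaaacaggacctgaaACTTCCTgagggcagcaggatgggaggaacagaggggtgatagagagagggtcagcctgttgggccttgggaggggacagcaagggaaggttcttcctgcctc
Mrc1, chr2:14229164-14229463, plus strand: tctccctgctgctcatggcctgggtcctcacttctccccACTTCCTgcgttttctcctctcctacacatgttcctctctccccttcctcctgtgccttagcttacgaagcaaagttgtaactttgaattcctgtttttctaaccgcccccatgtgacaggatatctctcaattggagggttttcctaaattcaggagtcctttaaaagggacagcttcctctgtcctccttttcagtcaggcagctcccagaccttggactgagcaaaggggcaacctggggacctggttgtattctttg

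AGGAAGT stood on the opposite strand in all 3 promoters. On the strand of the gene, ACTTCCT began 100, 53 and 211 bases before the start in Lyz2, C1qb and Mrc1. Searched on both strands, AGGAAGT was in 9.35% of the 32851 promoters of the table. The shorter PU.1 motif GAGGAA can overlap the start of AGGAAGT. It was in 2 of the 3 promoters (C1qb and Mrc1) and in 28.3% of all promoters, and TGCTGA, part of the motif of MAF factors, in 2 of the 3 (Lyz2 and C1qb) and in 19.5%. The motifs were chosen after these promoters had been seen, and a match of letters does not show that a factor bound there. The table of promoters held no entry for C1qa.

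Lyz2 (ENSMUSG00000069516, chr10:117277331-117282321, minus strand, GRCm38) was by far the most abundant of the 4 genes. It was at 671, 726 and 782 FPKM in I/R replicates 1, 2 and 3 and at 613, 571 and 696 FPKM in Sham replicates 1, 2 and 3. The groups overlapped, because Sham replicate 3 lay above I/R replicate 1. By mean FPKM, the listed transcript of Lyz2 ranked 26th of the 5041 protein-coding genes tested, and its 45201 reads over the 6 hearts made it the best measured of the 4. Its paralog Lyz1, which encodes a lysozyme of the gut and lies 5476 bases away, was at 4.43, 5.70 and 6.78 FPKM in I/R and at 2.32, 4.35 and 6.35 FPKM in Sham. Reads of such near copies can be assigned to the wrong one, which was not tested. The level of Lyz1 was 0.00659 to 0.00866 of that of Lyz2 in I/R and 0.00378 to 0.00913 in Sham.

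C1qa (ENSMUSG00000036887, chr4:136895917-136898803, minus strand) was at 166, 146 and 163 FPKM in I/R replicates 1, 2 and 3 and at 137, 122 and 148 FPKM in Sham replicates 1, 2 and 3. Here Sham replicate 3 lay just above I/R replicate 2, so the groups overlapped again. C1qb (ENSMUSG00000036905, chr4:136880129-136886187, minus strand) was at 201, 195 and 211 FPKM in I/R and at 175, 162 and 194 FPKM in Sham. It was the only 1 of the 4 genes with all I/R hearts above all Sham hearts, and the gap, 195.5 in I/R replicate 2 against 193.7 in Sham replicate 3, was narrow. The 3 I/R hearts lay above the 3 Sham hearts for 8.83% of the protein-coding genes tested. C1qa and C1qb lie 9730 bases apart on the same strand, with C1qc between them in the RefSeq annotation (chr4:136889801-136892936).

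Mrc1 (ENSMUSG00000026712, chr2:14229392-14332057, plus strand) was at 47.9, 38.9 and 46.6 FPKM in I/R replicates 1, 2 and 3 and at 38.0, 35.4 and 39.95 FPKM in Sham replicates 1, 2 and 3. I/R replicate 2 lay between Sham replicates 1 and 3. In each of the 6 hearts the order of levels of the listed transcripts was Lyz2, C1qb, C1qa and Mrc1 from high to low. Across hearts C1qa and C1qb overlapped in range, and Lyz2 and Mrc1 stood clear of them.

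**Figure D1:**
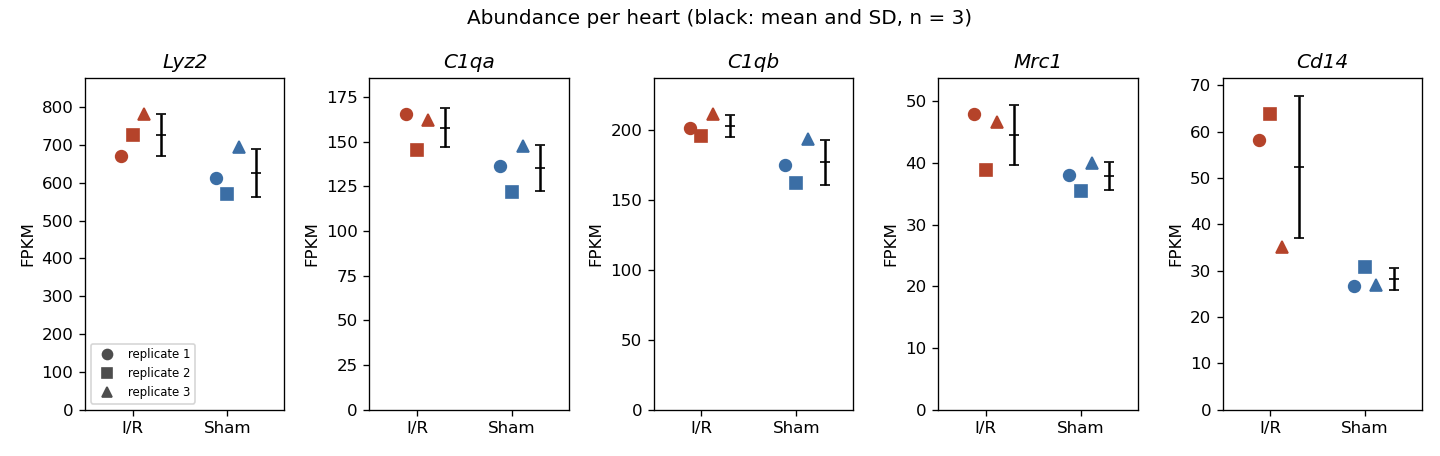
Abundance in FPKM of Lyz2, C1qa, C1qb, Mrc1 and Cd14 in each heart, with I/R left of Sham, marker shape for the replicate number, and the mean and SD (n = 3) in black. Lyz2, C1qa and Mrc1 overlap between the groups, C1qb is separated by a narrow gap, and Cd14 spans 35.03 to 63.9 FPKM in I/R and 26.6 to 30.9 in Sham.

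Setting I/R against Sham asks whether macrophage transcripts differ 1 h after a cardioplegic arrest. All 4 genes averaged slightly higher in I/R hearts, by nearly the same factor, and 0 of them passed the test. Lyz2 averaged 726 ± 55.4 FPKM in I/R and 626 ± 63.5 in Sham (SD, n = 3 each), a difference in log2(FPKM + 1) of 0.22 (95% confidence interval −0.03 to 0.46) or 1.16-fold (limma, adjusted p = 0.625). C1qa averaged 158 ± 10.7 FPKM in I/R and 135 ± 12.8 in Sham, which is 0.22 (−0.03 to 0.48) or 1.17-fold (limma, adjusted p = 0.625). C1qb averaged 203 ± 8.05 FPKM in I/R and 177 ± 16.0 in Sham, which is 0.20 (−0.03 to 0.43) or 1.15-fold (limma, adjusted p = 0.629). Mrc1 averaged 44.5 ± 4.90 FPKM in I/R and 37.8 ± 2.28 in Sham, which is 0.22 (−0.07 to 0.52) or 1.17-fold (limma, adjusted p = 0.680).

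The intervals reach from slightly below no difference to about 1.35-fold higher for C1qb, 1.38-fold for Lyz2, 1.39-fold for C1qa and 1.44-fold for Mrc1. The adjusted p fell under 0.05 for 0% of the 5041 protein-coding genes and 7073 lncRNAs tested. At an unadjusted p under 0.05, 3.43% of the protein-coding genes were higher in I/R, and none of the 4 genes was among them (unadjusted p from 0.0770 to 0.118). An unadjusted p under 0.05 was reached in 2 of 18 alternatives each by Lyz2, C1qa and C1qb and in 1 by Mrc1. For Lyz2, C1qa and C1qb this included leaving out Sham replicate 3, with unadjusted limma p values of 0.0296, 0.0473 and 0.0359, and for Mrc1 leaving out I/R replicate 2, with 0.0445. A log2 difference at least as large as that of C1qb, the smallest of the 4, was seen in 20.1% of the protein-coding genes, whose median difference was 0.02. With quantile normalization, which equalises the distribution of values between libraries, the difference was 0.01 for Lyz2, 0.08 for C1qb, 0.12 for Mrc1 and 0.14 for C1qa. In whole tissue, a change in the number of macrophages and a change in the RNA of each of these genes per macrophage cannot be told apart.

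Hearts of the same group differed from each other by more than counting error. The Lyz2 level varied by 7.63% between I/R hearts and 10.1% between Sham hearts (coefficient of variation), where counting error alone gives 1.13% and 1.17%. For C1qa the variation was 6.80% in I/R and 9.49% in Sham, with a counting error of 2.74% and 2.83%. For C1qb it was 3.97% in I/R and 9.07% in Sham, and for Mrc1 11.0% in I/R and 6.03% in Sham, with counting errors of 2.27% to 2.42%. These counting errors follow from the reads recovered from the FPKM and treat reads as independent.

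Ratios of 2 of the genes within a heart varied less than the genes themselves in Sham, but not always in I/R. The ratio of C1qb to C1qa was 1.21, 1.34 and 1.30 in I/R replicates 1, 2 and 3 and 1.28, 1.33 and 1.31 in Sham replicates 1, 2 and 3. It varied by 5.06% between I/R hearts, more than C1qb itself, and by 1.76% between Sham hearts, where counting error gives 3.68%. The ratio of Mrc1 to C1qa was 0.289, 0.267 and 0.287 in I/R and 0.279, 0.290 and 0.271 in Sham. It varied by 4.41% in I/R and 3.53% in Sham, with a counting error of 3.63%.

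The ratio of Lyz2 to C1qa was 4.05, 4.98 and 4.81 in I/R and 4.49, 4.68 and 4.71 in Sham, with the lowest value in I/R replicate 1. It varied by 10.7% in I/R and 2.61% in Sham, with a counting error of 3.02%. The ratio of Lyz2 to C1qb was 3.34, 3.71 and 3.70 in I/R and 3.50, 3.53 and 3.59 in Sham. It varied by 5.95% in I/R and 1.28% in Sham, with a counting error of 2.66%. These 4 ratios thus spread more in I/R than in Sham, a difference in spread that was not tested. They share genes and are not independent. The ratios of C1qb to C1qa, Lyz2 to C1qa and Lyz2 to C1qb were all lowest in I/R replicate 1.

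**Figure D2:**
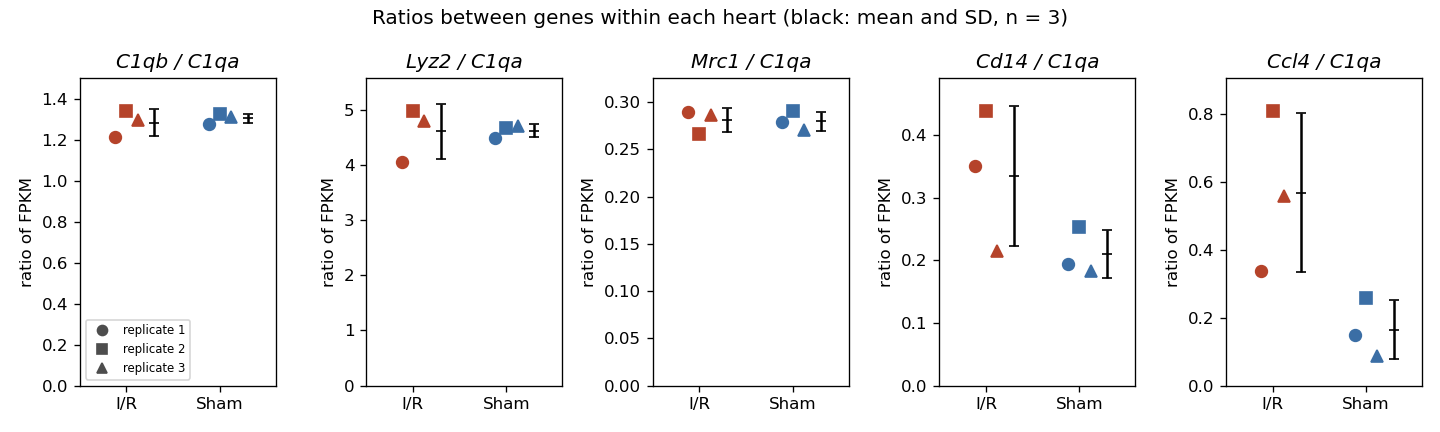
Ratios of FPKM within each heart, I/R left of Sham, with marker shape for the replicate number and the mean and SD (n = 3) in black. The ratios of C1qb, Lyz2 and Mrc1 to C1qa are similar in both groups, while those of Cd14 and Ccl4 to C1qa average 0.335 and 0.569 in I/R against 0.210 and 0.165 in Sham.

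On the log2 scale, with each gene centred on its own mean over the 6 hearts, the mean of the 4 genes was 0.12, 0.02 and 0.18 in I/R replicates 1, 2 and 3 and −0.11, −0.23 and 0.02 in Sham replicates 1, 2 and 3. Sham replicates 1 and 2 were the lowest hearts, and Sham replicate 3 was level with I/R replicate 2. The highest and the lowest of the 4 genes lay 0.23, 0.18 and 0.06 apart in I/R replicates 1, 2 and 3 and 0.04, 0.05 and 0.08 apart in Sham replicates 1, 2 and 3. Sham replicates 1 and 2 were also the libraries with the most reads, and the part of depth in this pattern was not tested. The median log2 level of all protein-coding genes tested differed from its mean over libraries by −0.04 to 0.04.

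**Figure D3:**
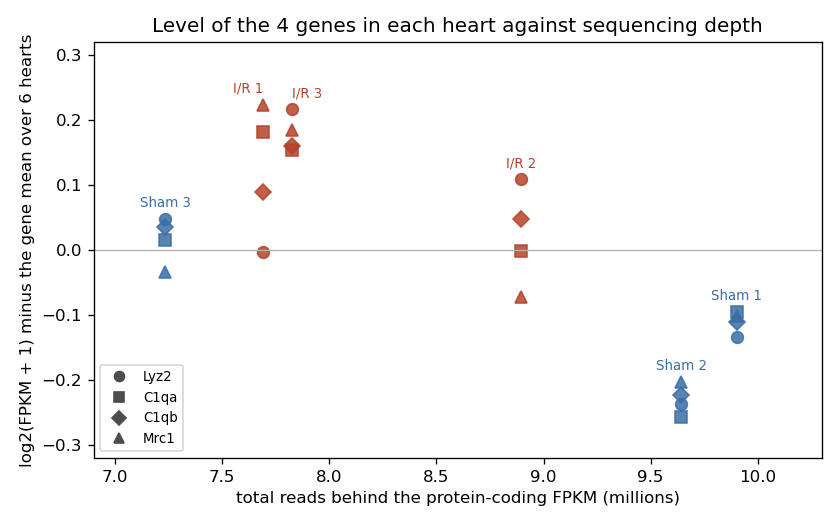
Level of Lyz2, C1qa, C1qb and Mrc1 in each heart, as log2(FPKM + 1) minus the mean of the gene over the 6 hearts, against the total reads behind the FPKM of protein-coding transcripts. The points of a heart lie closer together in Sham than in I/R replicates 1 and 2, and are lowest in Sham replicates 1 and 2 and near or above 0 in Sham replicate 3 and most points of the I/R hearts.

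The 2115 protein-coding genes that averaged 5 FPKM or more were compared with the mean profile of Lyz2, C1qa and C1qb over the 6 hearts. The closest were Tmed3 (Pearson r = 0.98), Ptges2 (0.94), Rnf150 (0.94), Mt1 (0.93) and Laptm5 (0.93). An r above 0.9 was reached by 14 genes, or 0.662%, and with 6 hearts shared by all comparisons the values serve as a description only. Mt1, a metallothionein gene, differed more between the groups than the profile it followed, at 43.0 ± 5.56 FPKM in I/R and 29.4 ± 7.05 in Sham. Tmed3, at 43.2 ± 1.04 FPKM in I/R and 40.8 ± 1.995 in Sham, differed less. Laptm5, which encodes a lysosomal membrane protein of blood cells, was at 13.3, 12.5 and 13.2 FPKM in I/R replicates 1, 2 and 3 and at 11.96, 10.4 and 12.03 in Sham replicates 1, 2 and 3. Other macrophage identity genes spread widely in this order, with Cd53 in place 25 (r = 0.88), Clec4a1 in place 135 (0.69), Cd14 in place 490 (0.44), Maf in place 492 (0.44) and Ms4a6c in place 900 (0.21).

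Of 30 further genes of macrophage identity, 16 had a row and 10 passed the filter of a mean of 0.5 FPKM. Of these 5 were higher and 5 lower in I/R, with a median difference of −0.04 and 0 past the test. Near the filter were Fcer1g, Coro1a and Apoe among the lower, averaging 0.56, 0.56 and 1.34 FPKM, and Fcgr1, averaging 0.90. Fcgr1 counted as higher by a log2 difference of only 0.0018, although its mean was 0.88 FPKM in I/R and 0.91 in Sham. Cd14 was counted in this list and again among the activation genes. Cd53, a leukocyte tetraspanin gene, was at 21.7, 26.4 and 28.8 FPKM in I/R and at 20.3, 18.5 and 23.3 in Sham (0.30 ± 0.16, SE). Ms4a6c differed by −0.11 ± 0.16 and the C-type lectin gene Clec4a1 by 0.13 ± 0.20.

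Several genes that macrophages transcribe strongly had few reads in the table. Fcer1g, the common chain of Fc receptors, had 6 reads over the I/R hearts and 14 over the Sham hearts, Aif1 had 0 in I/R and 1 in Sham, and Spi1, the gene of PU.1, had 5 in I/R and 8 in Sham. How much of such a gene's signal lies in transcripts outside the table is not known. The listed protein-coding transcripts held 36.8% to 39.9% of the reads behind the totals. A low value therefore does not show that the gene was silent: Tnni3, the troponin I gene of heart muscle, averaged 1.16 FPKM over the 6 hearts.

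Genes of the resident macrophages of the heart had a row in 7 of 20 cases, and 4 were tested. The 4 differences were above 0, with a median of 0.28, and 0 passed the test. A difference above 0 was seen in 54.9% of protein-coding genes. Timd4, a receptor for dying cells and a marker of macrophages that renew themselves locally, was at 7.66, 5.59 and 3.59 FPKM in I/R replicates 1, 2 and 3 and at 3.62, 3.05 and 4.01 in Sham replicates 1, 2 and 3 (0.49 ± 0.27; limma, adjusted p = 0.668). I/R replicate 3 lay between Sham replicates 1 and 2. Gas6, a bridging molecule for the uptake of dying cells that other heart cells also make, differed by 0.11 ± 0.09, the complement receptor gene Vsig4 by 0.33 ± 0.27 and Igf1 by 0.23 ± 0.21. Single hearts carried much of these values: Timd4 was at 0.27 without I/R replicate 1, Vsig4 at 0.098 without Sham replicate 1 and Igf1 at 0.059 without I/R replicate 3. Lyve1, Cd163 and F13a1 were among the 13 not analysed here.

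Genes of monocytes and of the macrophages derived from them, which carry the chemokine receptor CCR2, had a row in 14 of 22 cases. Of 7 tested, 4 were higher and 3 lower in I/R, with a median of 0.03 and 0 past the test. H2-Eb1, a chain of MHC class II, was at 193, 306 and 134 FPKM in I/R replicates 1, 2 and 3 and at 252, 135 and 220 in Sham replicates 1, 2 and 3. The hearts spread widely in both groups (0.03 ± 0.34), in contrast to the narrow range of C1qa and C1qb. H2-Ab1 differed by 0.05 ± 0.31, Ace by 0.08 ± 0.19, Cd52 by −0.01 ± 0.34, Ear2 by 0.26 ± 0.35 and Itgax by −0.17 ± 0.23. Ccr2 itself had 1 read over the I/R hearts and 5 over the Sham hearts.

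Neutrophils also transcribe Lyz2, so their markers were examined beside it. Of 20 neutrophil genes 7 had a row, and their summed level was 1.28 to 2.55 FPKM in the I/R hearts and 0.593 to 2.15 in the Sham hearts, against 571 to 782 FPKM for Lyz2. S100a8, which neutrophils transcribe in large amounts, had 0 reads over the I/R hearts and 1 over the Sham hearts. Mmp9 had 42 reads in I/R and 35 in Sham, and Il1r2 had 9 in I/R and 3 in Sham. S100a9, Ly6g and Csf3r were among the 13 not analysed here. The macrophage genes Aif1 and Spi1 also had few reads, and the part of neutrophils in the Lyz2 level was not tested.

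Genes that activated macrophages switch on differed more between the groups than the identity genes did. Of 46 listed, 25 had a row and 20 were tested: 18 were higher and 2 lower in I/R, with a median of 1.04. An unadjusted p under 0.05 was reached by 11 of the 20, all higher in I/R, where 3.43% of protein-coding genes reached it in that direction, and 0 passed the test over all genes. All I/R hearts lay above all Sham hearts for 7 of the 20, against 8.83% of protein-coding genes. The list was chosen with earlier results of these data known, and endothelial cells, fibroblasts and cardiomyocytes can transcribe many of them. The cells that made these transcripts cannot be told from whole hearts.

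Cd14, a receptor for bacterial lipopolysaccharide carried by macrophages, was at 58.2, 63.9 and 35.03 FPKM in I/R replicates 1, 2 and 3 and at 26.6, 30.9 and 26.9 in Sham replicates 1, 2 and 3. All I/R hearts lay above all Sham hearts, I/R replicate 3 by little (0.83 ± 0.23; limma, adjusted p = 0.442). The chemokine gene Ccl4 was at 56.2, 118 and 90.8 FPKM in I/R and at 20.5, 31.4 and 12.8 in Sham, again without overlap (2.01 ± 0.37; limma, adjusted p = 0.386). Socs3, an inhibitor of cytokine signalling made by many cells, was at 167, 368 and 312 FPKM in I/R and at 85.4, 114 and 60.3 in Sham. The other genes introduced above as examples overlapped between the groups. Ccl3 was at 25.5, 70.6 and 54.0 FPKM in I/R and at 16.1, 29.4 and 15.5 in Sham (1.20 ± 0.41). Tnf was at 0.952, 1.44 and 1.95 FPKM in I/R and at 0.370, 1.20 and 0.169 in Sham (0.66 ± 0.30). Il1b was at 12.4, 28.1 and 7.25 FPKM in I/R and at 10.9, 8.79 and 4.996 in Sham (0.73 ± 0.48, and 0.24 without I/R replicate 2). These 3 were added after their values were seen. Ccl7 differed by 1.10 ± 0.46, the NF-kB inhibitor gene Nfkbie by 1.395 ± 0.27 and the lipopolysaccharide receptor gene Tlr4 by 0.14 ± 0.13.

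The ratio of Cd14 to C1qa, which does not depend on how a library is scaled, was 0.351, 0.438 and 0.216 in I/R replicates 1, 2 and 3 and 0.195, 0.253 and 0.182 in Sham replicates 1, 2 and 3. The log2 ratio, with 1 added to each FPKM, averaged 0.61 higher in I/R, and 0.63 without that addition. With I/R replicate 3 below Sham replicate 2, an exact two-sided permutation test gave p = 0.20, where 3 hearts against 3 allow no p below 0.10. Cd14 was chosen for this with earlier results of these data known. Against Lyz2 the log2 ratio averaged 0.62 higher (exact permutation p = 0.20). Without I/R replicate 2 the difference to C1qa was 0.39, and without I/R replicate 3 the difference to Lyz2 was 0.93. I/R replicate 3, the lowest I/R heart for Cd14, was the highest heart for Lyz2 and C1qb, while I/R replicate 1 was the highest for C1qa and Mrc1. I/R replicate 3 was also the lowest I/R heart for Timd4. The ratio of Ccl4 to C1qa was 0.339, 0.809 and 0.559 in I/R and 0.150, 0.258 and 0.0866 in Sham, without overlap (exact permutation p = 0.10, the smallest possible; chosen after its values were seen).

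**Figure D4:**
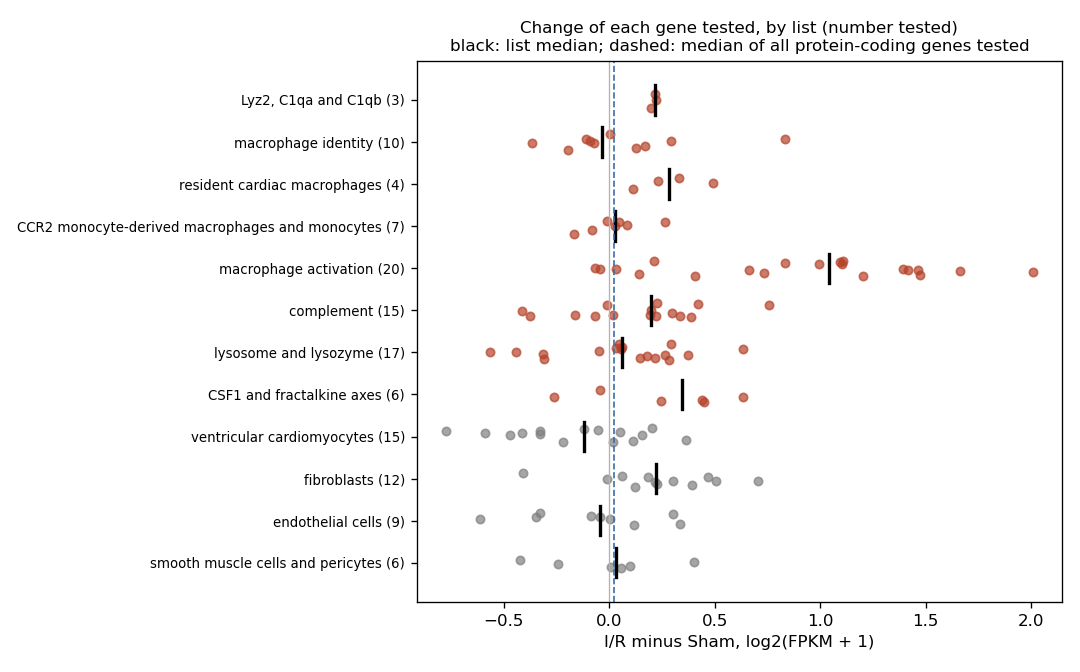
Difference of I/R minus Sham in log2(FPKM + 1) for each gene tested, by gene list with the number tested in brackets. Black bars are list medians and the dashed line is the median of all protein-coding genes tested, 0.02. Lyz2, C1qa and C1qb sit together near 0.2, and the activation genes reach from −0.07 to 2.01 with a median of 1.04.

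Around C1qa and C1qb, the wider complement system gave 20 rows of 42 genes and 15 genes tested, C1qa and C1qb included, 10 higher and 5 lower in I/R, with a median of 0.20 and 0 past the test. C3ar1, the receptor for the C3a fragment on myeloid cells, was at 17.7, 19.2 and 17.8 FPKM in I/R replicates 1, 2 and 3 and at 13.5, 15.1 and 14.1 in Sham replicates 1, 2 and 3 (0.34 ± 0.13; limma, adjusted p = 0.559). It was the only 1 of the 15 at an unadjusted p under 0.05, which 3.43% of protein-coding genes reached in this direction. All I/R hearts lay above all Sham hearts for 3 of the 15, C1qb and C3ar1 among them, against 8.83% of protein-coding genes. C3, the central component on which the classical pathway acts, was at 98.7, 80.3 and 141 FPKM in I/R and at 53.0, 65.0 and 133 in Sham (0.42 ± 0.36), and Sham replicate 3 again stood with the I/R hearts. The clusterin gene Clu differed by 0.76 ± 0.40, and Calr, whose protein binds C1q on dying cells, by −0.01 ± 0.16.

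Around Lyz2, the list of lysosomal genes gave 21 rows of 39 and 17 genes tested, Lyz2 included, 12 higher and 5 lower in I/R, with a median of 0.06 and 0 past the test. Abundant lysosomal genes that all heart cells use differed little: Lamp1 was at 600 ± 13.1 FPKM in I/R and 578 ± 33.5 in Sham (0.06 ± 0.08), Scarb2 differed by −0.05 ± 0.08 and Hexa by 0.15 ± 0.10. The cathepsin gene Ctsl was at 10.8, 7.23 and 8.51 FPKM in I/R and at 4.21, 6.41 and 5.41 in Sham (0.63 ± 0.22; limma, adjusted p = 0.510), and Ctsz differed by 0.29 ± 0.14.

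Of the signals that keep macrophages alive or hold them in tissue, the CSF1 and fractalkine axes, 9 of 20 genes had a row. Of 6 tested, 4 were higher and 2 lower in I/R, with 0 past the test. Cebpa, a transcription factor gene of the myeloid lineage, was at 1.98, 2.14 and 1.61 FPKM in I/R and at 1.08, 0.750 and 0.790 in Sham (0.64 ± 0.20; limma, adjusted p = 0.471), from 123 reads in I/R and 62 in Sham. Irf8, a transcription factor gene of monocytes and macrophages, differed by 0.44 ± 0.27, and Cx3cl1, which encodes the ligand of the macrophage receptor CX3CR1, by 0.45 ± 0.23. Runx1 differed by 0.25 ± 0.35, Tgfbr1 by −0.26 ± 0.23 and Tgfbr2 by −0.04 ± 0.13.

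In the marker lists of other heart cells 0 genes passed the test. Fibroblast markers had a median difference of 0.22 (12 of 15 tested, 10 higher), close to that of Lyz2, C1qa and C1qb. Their summed level was 633 to 691 FPKM in the I/R hearts and 499 to 608 in the Sham hearts. All I/R hearts lay above all Sham hearts for 3 of the 12 fibroblast markers tested, against 8.83% of protein-coding genes. Markers of ventricular cardiomyocytes had a median of −0.12 (15 of 19 tested, 9 lower and 6 higher). They summed to 12242 to 12997 FPKM in I/R and 12102 to 13347 in Sham, mostly Fabp3 and Hspb7. Pln differed by −0.77 ± 0.17 and Tnnt2 by −0.47 ± 0.13, and 0 of the 15 had all I/R hearts above all Sham hearts. Endothelial markers had a median of −0.04 (9 of 15), from −0.61 ± 0.21 for Tie1 to 0.33 ± 0.15 for Kdr. Those of smooth muscle cells and pericytes had a median of 0.03 (6 of 13). Summed levels of the blood and platelet genes with a row were 1.44 to 8.002 FPKM in I/R and 2.37 to 7.29 in Sham, and those of lymphocytes 2.11 to 3.02 FPKM in I/R and 2.57 to 3.90 in Sham. Dendritic cell genes summed to 1.58 to 3.04 FPKM in I/R and 1.97 to 2.34 in Sham, and mast cell genes to 1.30 to 5.49 FPKM in I/R and 3.46 to 4.73 in Sham. The part of a shift in cell proportions in the small differences of the 4 macrophage genes was not tested.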

How the data were processed

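One deposited table of FPKM, made by the authors, covers the 6 libraries, with poly(A) selection per the labels' protocols. HISAT2 2.1.0 and HTSeq 0.10.0 are listed without roles in the submitters' processing notes, beside fastp 0.23.0 and the mouse builds GRCm38, mm10 and GRCm39. No source used here states the annotation or the strand setting. Of 21198 rows, 40 repeated another and were dropped. Of 8614 genes, 97.1% overlapped their GRCm38 RefSeq span by at least 50%, so coordinates are given as GRCm38. Reads were recovered as whole multiples of 1 read per length and total (tolerance 0.001) for 11744 of 11745 protein-coding rows and 9413 of 9413 lncRNA rows.

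FPKM were summed per gene, a mean of 0.5 FPKM was required (5041 protein-coding genes and 7073 lncRNAs), and log2(FPKM + 1), a scale that understates changes of low genes, entered limma 3.58.1 under R 4.3.3 (group as the only term, variance trend, two-sided, Benjamini-Hochberg over all 12114 genes, threshold 0.05). Ratios were compared as log2 ratios, with 1 added to each FPKM, by an exact permutation test. The procedure was tested on simulated data. Ratios used numpy 2.4.6 under Python 3.11.15, and figures matplotlib 3.10.9.

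The genes and lists were chosen with earlier results of these data known. All genes of the rule with a row were named, and of the lists up to 4 of the most abundant genes and up to 2 with the smallest p. Of the lists of other heart and blood cells, sums and medians are given. Fabp3, Hspb7, Pln, Tnnt2, Tie1 and Kdr were named after their values were seen. Genes given with their reads only, Maf, Tnni3, Coro1a, Apoe and Fcgr1 are examples chosen after their values were seen. Alternatives were other pseudocounts, filters, scalings and variance models, protein-coding genes alone, the most abundant transcript, a replicate block, voom on recovered reads and each heart left out.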

Additional observations from a re-analysis of the deposited data

How the results depend on the processing

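No gene passed the adjusted threshold in the limma fit (0 of 12114, with 1023 at an unadjusted p under 0.05) or under any of the 18 alternatives, voom on recovered reads included (0 called, 1029 at an unadjusted p under 0.05). The number at an unadjusted p under 0.05 was 640 with a filter at 5 FPKM and 455 with protein-coding genes alone, where fewer genes were tested. The 4 macrophage genes stayed higher in I/R under all 18 alternatives. Filters, the variance trend, protein-coding genes alone, the replicate block and the most abundant transcript could not change these differences, only their p values. With 1 heart left out, the log2 difference ranged from 0.15 to 0.29 for Lyz2, 0.15 to 0.29 for C1qa, 0.14 to 0.27 for C1qb and 0.17 to 0.32 for Mrc1. With all hearts kept, the lowest values were those with quantile normalization, down to 0.01 for Lyz2.

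With the replicate number as a block, the differences were the same and the adjusted p values were 0.541 for Lyz2, 0.543 for C1qa, 0.568 for C1qb and 0.608 for Mrc1, with 0 genes called and 1125 at an unadjusted p under 0.05. Deviations of hearts with the same number correlated at 0.21, 0.06 and 0.08, and those with different numbers at −0.22 to 0.15. The labels name no pairs, and the numbers were not taken as pairs. Paired by number, the log2 ratios of Cd14 to C1qa and to Lyz2 gave an exact sign-flip p of 0.25 each, the smallest possible with 3 pairs. With 1 heart left out the differences in these ratios ranged from 0.39 to 0.89 and from 0.45 to 0.93.

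Of 51 genes followed, 29 moved by over 1.5 times or changed sign with some heart left out. The 22 that did not include Lyz2, C1qa, C1qb, Mrc1, Cd14, Ccl4, Socs3 and C3ar1. Beside the 4 macrophage genes, 11 of 47 changed sign under some alternative, in 26 of 825 values. The log2 difference with quantile normalization was −0.057 for H2-Eb1, −0.027 for H2-Ab1 and −0.022 for Tmed3, and with median scaling 0.0011 for Cd52 and 0.00017 for Calr. With 1 heart left out it ranged from −0.029 to 0.25 for Clec4a1, −0.28 to 0.31 for H2-Eb1, −0.18 to 0.33 for H2-Ab1, −0.066 to 0.20 for Ace, −0.29 to 0.22 for Cd52, −0.019 to 0.53 for Ear2, −0.17 to 0.080 for Calr, −0.017 to 0.64 for Runx1, −0.18 to 0.21 for Mmp9 and −0.22 to 0.10 for Maf. The cause was not tested.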
